A study of Mus musculus with 30 samples.

Results

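The genes described here are chaperones and folding helpers of the endoplasmic reticulum (ER), together with a transcription factor that controls them, all of them known for rising in the unfolded protein response. A list of 10 genes was given by name (Hspa5, Hsp90b1, Sdf2l1, Manf, Hyou1, Dnajb9, Pdia4, Creld2, Xbp1 and Herpud1), and a gene was taken when a probe set of the array carried exactly 1 gene symbol equal to its own. That left 9 genes with 1 probe set each, out of 18820 genes that the array covers in this way and out of 35556 probe sets in all. The only probe set of Pdia4, an ER disulfide isomerase, also carries the symbol of a microRNA gene, so no level of Pdia4 is given. Every value below is the log2 intensity after Robust Multichip Averaging (RMA), where a difference of 1 is a 2-fold change.

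Livers of male mice aged about 8 weeks were studied in 8 groups, made of 4 genotypes under each of 2 regimens, with 30 livers on 30 Affymetrix Mouse Gene 1.1 ST arrays. The genotypes were PPARα-/- (allele Pparatm1Gonz), CREB3L3-/-, the combined PPARα/CREB3L3-/- bred from both lines, and wild type, the CREB3L3-/- line having been backcrossed to C57BL/6, the PPARα-/- line to C57Bl/6J, and the wild type being labelled C57BL/6. The regimens were a ketogenic diet for 4 days, eaten freely until the end, and a 16-h fast, with all mice killed at about the same morning hour. Each group had 4 livers, except for the 2 PPARα-/- groups, which had 3. Both knockouts lack the gene in the whole body, and neither regimen is a chow-fed baseline. The Creb3l3 level lay between 4.29 and 5.36 in the 16 livers bred without the gene, against 9.49 to 11.28 in the other 14. The Ppara probe set read 6.62 to 9.35 in the 14 livers carrying the PPARα knockout, against 8.01 to 10.54 in the other 16, and since the allele disrupts a part of the gene and transcript can remain, that probe set does not check the genotype. Hepatocyte markers were high on every array, with a mean log2 level over 13 genes of 11.06 to 12.8.

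Proteins that enter the ER are folded with the help of resident chaperones, above all BiP, the Hsp70 of the ER encoded by Hspa5. When unfolded protein builds up, the sensors IRE1, PERK and ATF6 in the ER membrane signal to the nucleus. IRE1 removes a short intron from Xbp1 mRNA so that the active factor XBP1s is made, ATF6 is cut in the Golgi to release a transcription factor, and PERK slows translation and raises ATF4. ATF6 and XBP1s act on chaperone genes through the ER stress response element (ERSE). CREB3L3 (also called CREBH) is built like ATF6, an ER membrane protein released as a transcription factor by cleavage in the Golgi, and is found mainly in liver and intestine, whereas PPARα is a nuclear receptor for fatty acids that controls fatty acid oxidation. The liver secretes most plasma proteins, and its ER chaperones are therefore abundant. The array reads total Xbp1 mRNA and does not separate the spliced form.

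Sequence around the annotated start was available for 8 of the 10 genes from RefSeq (GRCm38.p6), from 250 bases before to 50 bases after the start, and 4 are printed because they hold one of the elements named above in full. Capitals mark the match. The ERSE is CCAAT and CCACG with 9 bases between them, and ERSE-II is ATTGG and CCACG with 1 base between them. The Herpud1 stretch also holds TTGCATCA, a composite C/EBP-ATF element of the kind through which ATF4 is known to act, and both its matches are capitalized.
Hspa5 (chr2:34771840-34772139, + strand): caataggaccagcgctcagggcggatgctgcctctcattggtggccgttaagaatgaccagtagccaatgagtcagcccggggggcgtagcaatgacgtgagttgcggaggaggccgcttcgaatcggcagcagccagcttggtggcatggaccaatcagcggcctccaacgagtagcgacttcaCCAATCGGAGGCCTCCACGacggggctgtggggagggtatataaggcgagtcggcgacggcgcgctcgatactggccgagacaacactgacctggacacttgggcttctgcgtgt
Hsp90b1 (chr10:86705395-86705694, - strand): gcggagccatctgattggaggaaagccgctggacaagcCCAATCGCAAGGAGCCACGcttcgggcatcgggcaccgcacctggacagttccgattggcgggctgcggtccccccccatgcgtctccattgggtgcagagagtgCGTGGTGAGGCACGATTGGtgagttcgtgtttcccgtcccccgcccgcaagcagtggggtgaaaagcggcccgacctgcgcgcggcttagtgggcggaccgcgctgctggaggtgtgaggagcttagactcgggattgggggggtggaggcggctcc
Creld2 (chr15:88819396-88819695, + strand): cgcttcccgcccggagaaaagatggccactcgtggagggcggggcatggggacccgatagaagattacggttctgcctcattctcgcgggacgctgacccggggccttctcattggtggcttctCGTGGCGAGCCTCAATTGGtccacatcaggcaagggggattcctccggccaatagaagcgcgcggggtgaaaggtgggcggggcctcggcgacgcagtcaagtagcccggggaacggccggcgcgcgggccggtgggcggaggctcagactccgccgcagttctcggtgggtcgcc
Herpud1 (chr8:94386179-94386478, + strand): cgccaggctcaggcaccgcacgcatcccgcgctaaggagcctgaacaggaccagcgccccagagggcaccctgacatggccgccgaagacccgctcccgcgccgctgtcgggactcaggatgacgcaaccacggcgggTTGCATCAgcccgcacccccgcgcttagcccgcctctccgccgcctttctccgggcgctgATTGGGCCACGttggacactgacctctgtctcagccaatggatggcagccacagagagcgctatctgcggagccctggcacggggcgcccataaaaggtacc

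Counting the annotated start base as 0, the ERSE of Hspa5 covers -65 to -47 on the sense strand. Hsp90b1 has 1 ERSE at -212 to -194 on the sense strand and another at -107 to -89 on the antisense strand, and that of Creld2 lies at -126 to -108 on the antisense strand. The ERSE-II of Herpud1 is at -52 to -42 and its C/EBP-ATF element at -112 to -105, both on the sense strand. Searching both strands of all 32851 promoters of this length, 0.119% held an ERSE, 0.0365% an ERSE-II and 0.895% the C/EBP-ATF element, so that 3 of these 8 genes held a motif found in 39 promoters in all. The XBP1 element TGACGTGG, held by 0.676% of promoters, was in none of the 8. The core CCACG, which is contained in both elements and was held by 32.8% of promoters, was in 7 of the 8, Xbp1 being the one without it. A match is a run of letters and not evidence of binding, and a missing match says only that these letters are not in this window.

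**Figure D1:**
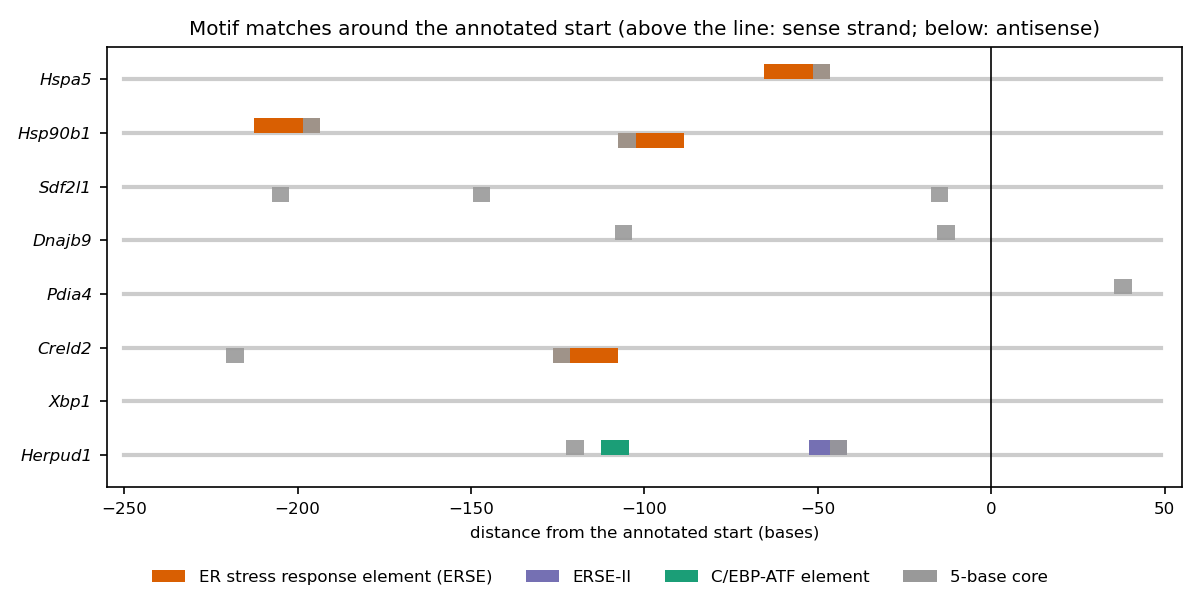
Motif matches around the annotated start of the 8 genes with a sequence, as distance in bases from the start, with sense matches above and antisense matches below each line. Full ERSE (orange) or ERSE-II (violet) matches lie upstream of the start in Hspa5, Hsp90b1, Creld2 and Herpud1, and the 5-base core (grey) is in all genes shown but Xbp1.

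These are abundant transcripts. Averaged over all 30 arrays, Hspa5 had a log2 level of 12.40, at the 99.7 percentile of all probe sets, Herpud1 lay at the 99.3 and Hsp90b1 at the 99.2 percentile, and the dimmest, Manf, at the 83.6 percentile, so that no gene was limited by background. Between the lowest and the highest group mean the genes spanned 0.63 (Xbp1) to 1.71 (Herpud1), with a pooled SD among livers of 1 group between 0.10 (Hsp90b1) and 0.42 (Sdf2l1). Since probe sets differ in how strongly they bind, levels are not ranked between genes.

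In the fasted state every one of the 9 genes was higher on average in all 3 knockouts than in wild type. The limma fit, with an intensity trend, covered every probe set. A gene counts as called where P was below 0.001 and the fold change exceeded 1.2, and p values were adjusted by Benjamini-Hochberg across the 35556 probe sets. By this rule 5 of 9 genes were called higher in PPARα-/- livers, against a background of 2.23% of all probe sets called higher in the same comparison, 5 of 9 in CREB3L3-/- livers, against 0.787%, and 7 of 9 in PPARα/CREB3L3-/- livers, against 4.19%, and none was called lower. Among the probe sets brighter than the median one, to which all 9 belong, those backgrounds were 4.15%, 1.37% and 7.86%. The 9 genes had median log2 fold changes of 0.45, 0.52 and 0.79 in that order of genotypes, with a median over all probe sets of -0.002, 0.006 and -0.02. These 3 comparisons share the same 4 wild-type arrays, so they are not independent of one another, and in whole liver a change per cell and a change in the number of cells of a type cannot be told apart.

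Before the genes are taken in turn, 1 array has to be named. Replicate 3 of the fasted PPARα-/- livers gave the highest value of its group for all 9 genes, with Sdf2l1 at 10.41 against 8.51 and 9.14 in the other livers of the group, and a mean z-score over the genes of 1.81 against 0.01 and 0.71. Without it, 0 of 9 genes were called in fasted PPARα-/- livers (limma, 2 livers against 4), with all 9 still above wild type on average, a median of 0.38 on the log2 scale and adjusted p values of 0.065 to 0.51. The calls in PPARα-/- therefore rest on that liver. Leaving out PPARα-/- replicate 1 instead raised the count to 8, and leaving out wild-type replicate 2, the lowest of its group for 7 of the 9 genes, lowered it to 3 in PPARα-/- and to 1, Hsp90b1, in CREB3L3-/- livers. For PPARα/CREB3L3-/- the count stayed between 6 and 8 whichever array was left out.

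Hspa5 encodes BiP. It had 12.49, 12.57 and 12.83 in fasted PPARα-/- livers, 12.66, 12.66, 12.58 and 12.64 in CREB3L3-/- livers, and 12.68, 12.90, 12.68 and 12.42 in PPARα/CREB3L3-/- livers, against 12.17, 12.14, 12.36 and 12.23 in wild-type livers. Every knockout liver lay above every wild-type liver. On the log2 scale it was higher by 0.40 ± 0.10 (SE, adjusted p = 0.016), 0.41 ± 0.09 (0.024) and 0.45 ± 0.09 (0.0018), and all were called. The call in PPARα-/- was also lost without PPARα-/- replicate 2 or wild-type replicate 1, 2 or 4, at 0.38 to 0.43, and with a replicate block (0.37), without the intensity trend (0.40) and with median centring (0.38). Hsp90b1, the ER form of Hsp90, known as GRP94, showed the same separation. Its levels were 12.09, 12.09 and 12.45 in PPARα-/- livers, 12.11, 12.19, 12.16 and 12.21 in CREB3L3-/- livers and 12.20, 12.35, 12.20 and 12.11 in PPARα/CREB3L3-/- livers, against 11.85, 11.81, 11.94 and 11.81 in wild-type livers. The log2 fold changes of 0.36, 0.32 and 0.36 were the smallest of the called genes, with the smallest spread among livers as well.

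Hyou1 encodes GRP170, which exchanges the nucleotide of BiP. It had 9.92, 10.35 and 10.91 in fasted PPARα-/- livers, 10.19, 10.38, 10.35 and 10.29 in CREB3L3-/- livers and 10.43, 10.69, 10.41 and 10.21 in PPARα/CREB3L3-/- livers, against 9.62, 9.46, 9.79 and 9.71 in wild-type livers, again with no overlap. It was called in all 3, at log2 fold changes of 0.75 ± 0.16, 0.66 ± 0.15 and 0.79 ± 0.15 (adjusted p = 0.0054, 0.025 and 0.00074). Manf, a small ER protein that binds BiP and is also secreted, was called in all 3 too. It had 7.74, 8.04 and 8.75 in PPARα-/- livers, 8.19, 8.10, 8.11 and 8.04 in CREB3L3-/- livers and 8.32, 8.61, 8.13 and 7.87 in PPARα/CREB3L3-/- livers, against 7.39, 7.10, 7.74 and 7.29 in wild-type livers. The lowest PPARα-/- liver was level with the highest wild-type liver, whereas the other knockouts did not overlap with wild type.

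The largest changes were those of Sdf2l1, a partner of ER J-domain proteins, although it was not called in 2 of the 3 comparisons. Its SE comes from the spread within all 8 groups together. The SD was 0.97 in fasted PPARα-/- livers, 0.13 in CREB3L3-/-, 0.40 in PPARα/CREB3L3-/- and 0.33 in wild-type livers. Sdf2l1 had 8.51, 9.14 and 10.41 in fasted PPARα-/- livers, 8.85, 9.17, 8.96 and 9.02 in CREB3L3-/- livers and 9.28, 9.45, 8.98 and 8.54 in PPARα/CREB3L3-/- livers, against 8.00, 7.57, 8.32 and 8.22 in wild-type livers. All knockout livers lay above wild type, by 1.33 ± 0.30 (called, adjusted p = 0.0076), 0.98 ± 0.28 (not called, adjusted p = 0.084) and 1.04 ± 0.28 (not called, adjusted p = 0.015) on the log2 scale. Creld2, an ER protein with EGF-like domains that is induced by ER stress, had 10.37, 10.45 and 11.44 in PPARα-/- livers, 10.90, 10.99, 10.68 and 10.81 in CREB3L3-/- livers and 10.90, 11.24, 10.63 and 10.33 in PPARα/CREB3L3-/- livers, against 9.80, 9.57, 10.14 and 10.01 in wild-type livers. It was called in CREB3L3-/- (0.97 ± 0.22, adjusted p = 0.026) and in PPARα/CREB3L3-/- livers (0.90 ± 0.22, 0.0081), and the call in PPARα/CREB3L3-/- was lost when wild-type replicate 1 or 2 or PPARα/CREB3L3-/- replicate 1 or 2 was left out, at 0.74 to 0.87. Its value in PPARα-/- was 0.87 ± 0.24 (not called, adjusted p = 0.029).

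Dnajb9, or ERdj4, a J-domain partner of BiP that holds IRE1 in check, and Xbp1 itself passed the call in PPARα/CREB3L3-/- livers and not in the single knockouts, while the difference between the combined and each single knockout was not called. Dnajb9 had 10.22, 10.52, 10.06 and 9.87 in PPARα/CREB3L3-/- livers, against 9.41, 9.25, 9.51 and 9.33 in wild-type livers, a log2 fold change of 0.79 ± 0.16 (adjusted p = 0.00091), beside 0.44 ± 0.17 in PPARα-/- and 0.52 ± 0.16 in CREB3L3-/- livers. Xbp1 had 10.90, 11.25, 11.08 and 10.67 in PPARα/CREB3L3-/- livers, against 10.45, 10.29, 10.27 and 10.36 in wild-type livers, a log2 fold change of 0.63 ± 0.12 (adjusted p = 0.00042), beside 0.45 ± 0.12 and 0.32 ± 0.12 in the single knockouts. In both genes the livers lacking both factors did not overlap with wild type. Herpud1, a membrane protein with a ubiquitin-like domain that organizes ER-associated degradation, was not called in any fasted knockout, at 0.41 ± 0.16, 0.31 ± 0.15 and 0.47 ± 0.15.

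**Figure D2:**
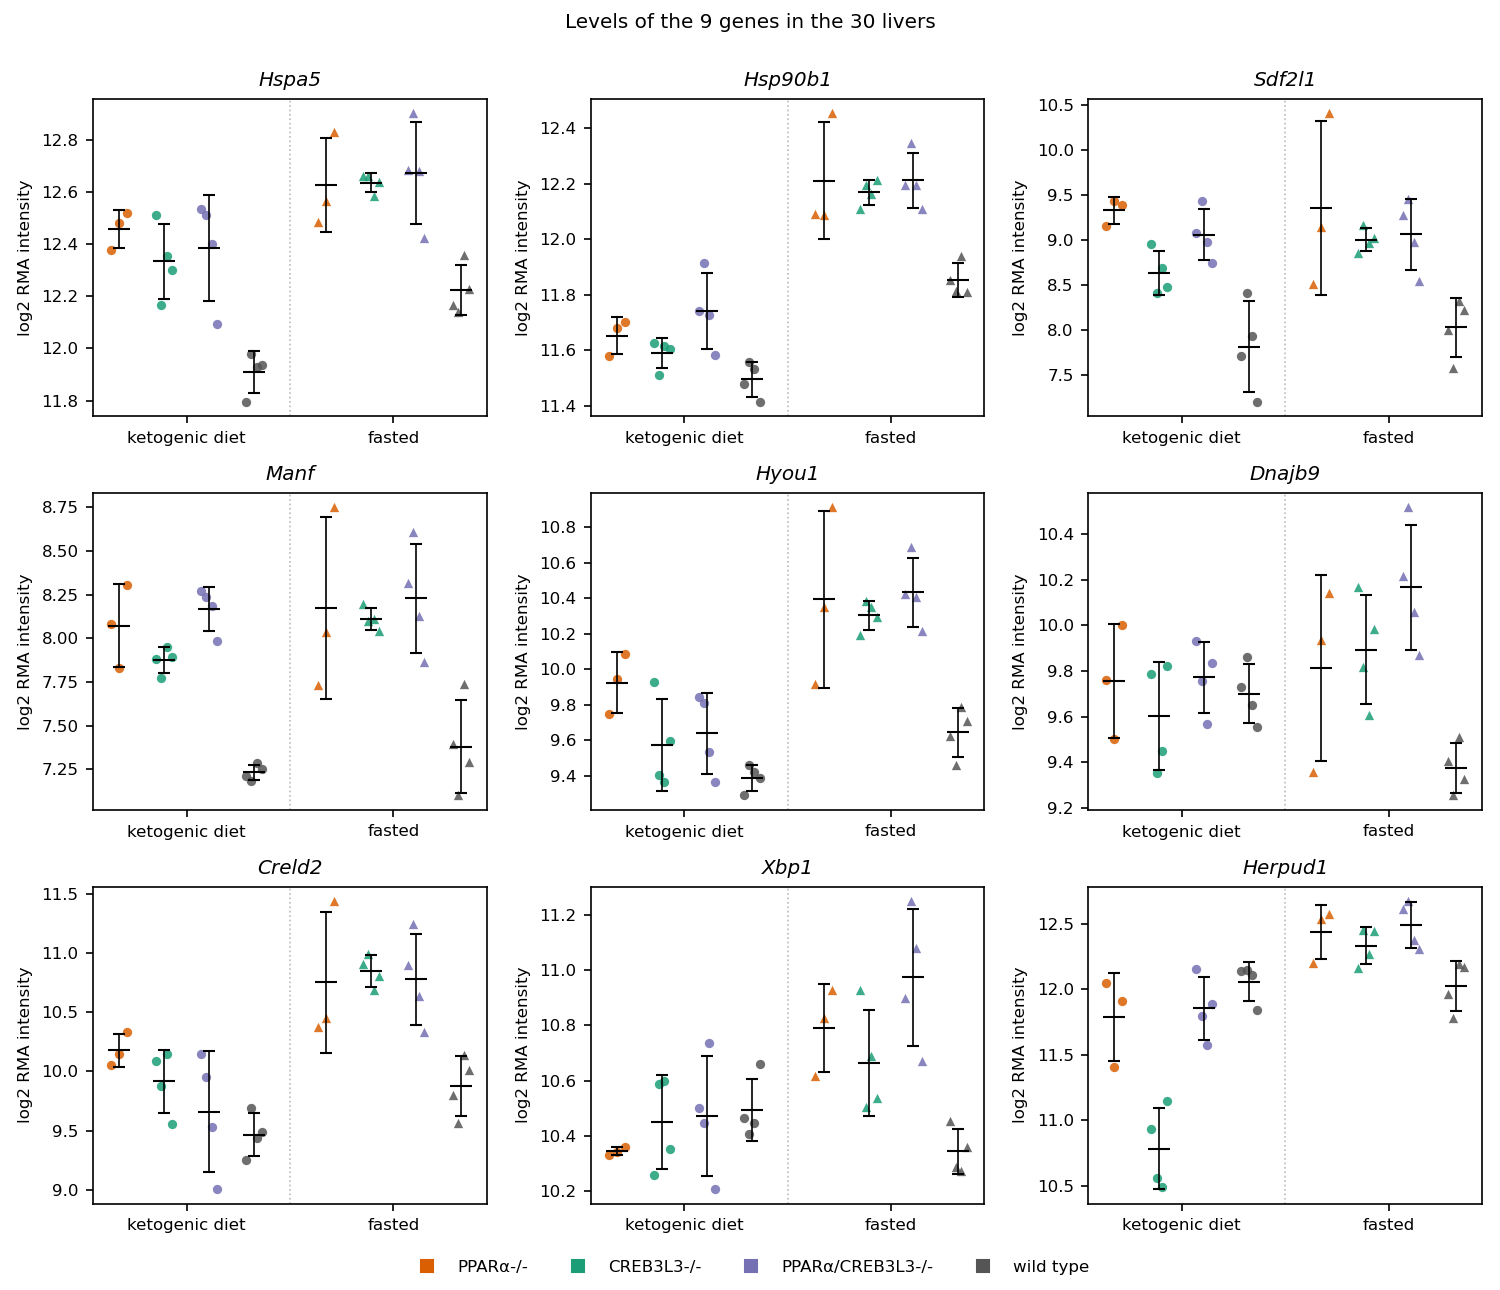
Log2 RMA levels of the 9 genes in all 30 livers, with ketogenic-fed groups on the left (circles) and fasted groups on the right (triangles) of each panel, in the order PPARα-/-, CREB3L3-/-, PPARα/CREB3L3-/- and wild type. Bars are the mean ± SD (n = 3 or 4), and Herpud1 in ketogenic-fed CREB3L3-/- livers, at 10.49 to 11.15, lies below every other liver of its panel.

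Lacking both factors did not raise the genes beyond lacking 1 of them by any call. In fasted PPARα/CREB3L3-/- livers compared with PPARα-/- livers, 0 of 9 genes were called in limma (background 1.67% of probe sets in either direction), and 0 of 9 when compared with CREB3L3-/- livers (5.28%). The intensity-based moderated statistic (IBMT) called 0 as well in each, and at an unadjusted P under 0.05 there was 1 gene each, Dnajb9 (0.35 ± 0.17 over PPARα-/-) and Xbp1 (0.31 ± 0.12 over CREB3L3-/-). For Hspa5 the 95% interval of the difference ran from -0.16 to 0.26 over PPARα-/- and from -0.16 to 0.23 over CREB3L3-/-, and for Hyou1 from -0.30 to 0.38 and from -0.18 to 0.44. The PPARα-/- mean in these differences includes replicate 3. Without that liver the rise in PPARα-/- over wild type was 0.30 for Hspa5 and 0.49 for Hyou1. It was 0.45 and 0.79 in PPARα/CREB3L3-/-, so the differences over PPARα-/- were then larger. No gene was called over PPARα-/- whichever array was left out. The interaction, which is the change with CREB3L3 loss in mice without PPARα minus that in mice with PPARα, was negative for all 9 genes, between -1.27 (Sdf2l1) and -0.14 (Xbp1), with none called by limma or IBMT (background 0.762%). At an unadjusted P under 0.05 there were 6, Hspa5, Hsp90b1, Sdf2l1, Manf, Hyou1 and Creld2, with adjusted p values of 0.24 to 0.34, and without PPARα-/- replicate 1 the count called was 3. Without PPARα-/- replicate 3 the rise in PPARα-/- over wild type was smaller for all 9 genes. It was 0.80 instead of 1.33 for Sdf2l1 and 0.27 instead of 0.44 for Dnajb9. The size of these interactions and their common sign therefore rest in part on that liver.

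On the ketogenic diet fewer of the genes were called. In PPARα-/- livers 3 of 9 genes were called higher (background 6.11%), in CREB3L3-/- livers 2 (12.8%) with 1 called lower (8.56%), and in PPARα/CREB3L3-/- livers 3 (7.11%). Among the probe sets brighter than the median one the shares called higher were 11.5%, 22.1% and 13.1%, and 16.1% were called lower in CREB3L3-/-, so that the counts of 2 higher and 1 lower in CREB3L3-/- livers were close to or below that background. Hspa5 and Manf were among them in every genotype, so that these 2 were called in all 6 comparisons of a knockout with wild type. Sdf2l1 was called in PPARα-/- and PPARα/CREB3L3-/- livers. The medians over the 9 genes were 0.54, 0.18 and 0.25 on the log2 scale, with medians over all probe sets of 0.006, -0.065 and 0.014. The 3 comparisons again share 4 wild-type arrays. The change of each knockout effect with the regimen was tested directly and is given with the diets below.

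Hspa5 had 12.38, 12.48 and 12.52 in ketogenic-fed PPARα-/- livers, 12.51, 12.17, 12.36 and 12.30 in CREB3L3-/- livers and 12.54, 12.51, 12.40 and 12.09 in PPARα/CREB3L3-/- livers, against 11.80, 11.98, 11.93 and 11.94 in wild-type livers. The groups did not overlap, and the log2 fold changes were 0.55 ± 0.10, 0.42 ± 0.09 and 0.48 ± 0.09 (adjusted p = 0.00026, 0.00078 and 0.0004). Manf had 8.08, 7.83 and 8.31 in PPARα-/- livers, 7.88, 7.77, 7.95 and 7.89 in CREB3L3-/- livers and 8.27, 8.23, 8.19 and 7.99 in PPARα/CREB3L3-/- livers, against 7.21, 7.18, 7.28 and 7.25 in wild-type livers. Here too every knockout liver was above every wild-type liver, by 0.84 ± 0.17, 0.64 ± 0.16 and 0.94 ± 0.16. In PPARα-/- the call was lost without PPARα-/- replicate 3 (0.72). The call of Manf in CREB3L3-/- livers (adjusted p = 0.0026) was lost on leaving out any of 7 of the 8 arrays compared, all except CREB3L3-/- replicate 2, at log2 fold changes of 0.62 to 0.66, and that of Hspa5 on leaving out CREB3L3-/- replicate 1 (0.36), which left Herpud1 as the 1 gene called.

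Sdf2l1 had 9.16, 9.43 and 9.39 in ketogenic-fed PPARα-/- livers, 8.95, 8.41, 8.69 and 8.48 in CREB3L3-/- livers and 9.08, 9.44, 8.98 and 8.75 in PPARα/CREB3L3-/- livers, against 7.71, 8.41, 7.94 and 7.20 in wild-type livers. At 1.52 ± 0.30 the change in PPARα-/- was the largest rise of any of the 9 genes in any comparison with wild type, and here no single array stood apart in the knockout. The other values were 0.82 ± 0.28 in CREB3L3-/- (not called) and 1.25 ± 0.28 in PPARα/CREB3L3-/- (called, and lost without PPARα/CREB3L3-/- replicate 2 or wild-type replicate 4, at 1.12 and 1.04). Of the genes called in the fasted knockouts, Hsp90b1 now had 0.16 ± 0.08, 0.09 ± 0.07 and 0.25 ± 0.07, Hyou1 0.54 ± 0.16, 0.18 ± 0.15 and 0.25 ± 0.15, and Creld2 0.71 ± 0.24, 0.45 ± 0.22 and 0.19 ± 0.22, with no call. Dnajb9 lay between -0.10 and 0.07 and Xbp1 between -0.15 and -0.02, with no call either.

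**Figure D3:**
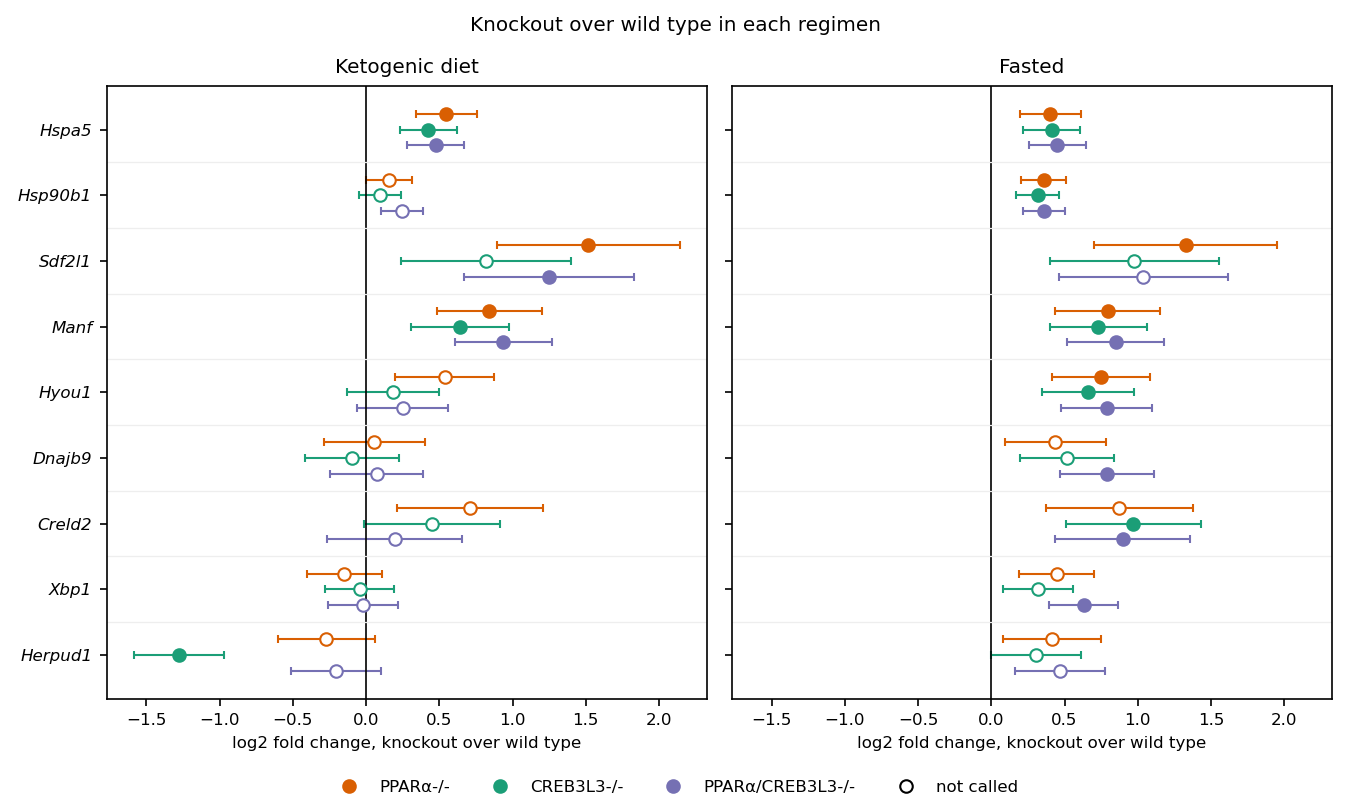
Log2 fold change of each gene in each knockout over wild type on the ketogenic diet (left) and after the fast (right), with 95% intervals from the limma fit; filled points were called at P under 0.001 and a fold beyond 1.2. All fasted values lie above 0, and on the ketogenic diet Herpud1 in CREB3L3-/- lies at -1.28.

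Herpud1 parted from the other genes in ketogenic-fed CREB3L3-/- livers. It had 10.93, 10.56, 10.49 and 11.15 there, against 12.14, 12.15, 12.11 and 11.84 in wild-type livers, a log2 fold change of -1.28 ± 0.15 (adjusted p = 1e-07), with each knockout liver below every wild-type liver. Livers lacking both factors had 12.16, 11.80, 11.57 and 11.89 and PPARα-/- livers had 12.05, 11.40 and 11.91, both overlapping with wild type. PPARα/CREB3L3-/- livers were accordingly higher than CREB3L3-/- livers, by 1.07 ± 0.15 (adjusted p = 2.1e-06), and Herpud1 was the 1 gene of 9 called in that comparison, against a background of 20.4% of probe sets in either direction. The interaction was 1.34 ± 0.22 (adjusted p = 3.4e-05), again the only call of 9 (15.9%). These calls were kept whichever array was left out, at -1.40 to -1.18 for CREB3L3-/- over wild type and 1.15 to 1.47 for the interaction over all settings tried. Hspa5 (-0.50 ± 0.14, adjusted p = 0.0085) and Creld2 (-0.97 ± 0.33, adjusted p = 0.033) had interactions of the opposite sign that were not called, as had Sdf2l1 (-1.09 ± 0.41, adjusted p = 0.057), Manf (-0.55 ± 0.24) and Hyou1 (-0.47 ± 0.22), all at an unadjusted P under 0.05. Hspa5 was called as well when PPARα/CREB3L3-/- replicate 1 or 2 or CREB3L3-/- replicate 2 was left out. Ketogenic-fed PPARα/CREB3L3-/- and PPARα-/- livers showed no called difference in limma or IBMT (0 of 9, background 2.42%), with 1 gene, Creld2, at an unadjusted P under 0.05 (-0.52 ± 0.24).

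The CREB3L3-/- livers on the ketogenic diet also differed from wild type in their cell markers. Proliferation markers were called higher for 11 of 11 measured genes, stellate cell and collagen markers for 9 of 12, macrophage markers for 8 of 14 and cholangiocyte markers for 3 of 7, whereas hepatocyte markers were called lower for 10 of 13. Over all genes with a single symbol 16.7% were called higher and 11.9% lower in this comparison. The mean log2 level of the proliferation markers ran from 7.54 to 8.80 in these livers, against 3.55 to 4.88 in wild-type livers, and that of the hepatocyte markers from 11.06 to 11.99, against 12.55 to 12.68. The part of these shifts in the fall of Herpud1 was not tested. On the same diet hepatocyte markers were also called lower for 6 of 13 genes in PPARα-/- and for 5 of 13 in PPARα/CREB3L3-/- livers, and macrophage markers for 9 and 6 of 14, where 7.15% and 10.3% of all genes were called lower. After the fast the medians of these 5 lists lay between -0.27 and 0.17 on the log2 scale in all knockouts. Plasma cells are rich in these chaperones and in XBP1. Their markers and those of B cells had a mean log2 level of 3.56 to 4.09 on all arrays, below the array medians of 4.22 to 4.38, and their median log2 fold change in the 6 comparisons with wild type lay between -0.24 and -0.12.

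The diets were compared within each genotype. Ketogenic-fed livers had lower levels than fasted livers on average for all 9 genes in each knockout and for 6 of 9 in wild type. In PPARα-/- this depended on fasted replicate 3, since without it 3 genes, Sdf2l1 (0.50), Manf (0.19) and Dnajb9 (0.11), were higher on the ketogenic diet and the median was -0.21, and 1 gene, Hsp90b1, was called. The counts called lower were 2 in PPARα-/- (background 4.46%), 4 in CREB3L3-/- (11.1%), 5 in PPARα/CREB3L3-/- (7.09%) and 1 in wild type (1.72%), with shares among the brighter probe sets of 8.24%, 20.2%, 13.3% and 3.12%, and with none called higher (at an unadjusted P under 0.05 Dnajb9 alone was higher, by 0.33 ± 0.16 in wild type). Hsp90b1 was called lower in all 4 genotypes. It had 11.58, 11.68 and 11.70 in ketogenic-fed PPARα-/- livers, against 12.09, 12.09 and 12.45 in fasted ones, and 11.48, 11.56, 11.53 and 11.42 in ketogenic-fed wild-type livers, against 11.85, 11.81, 11.94 and 11.81 in fasted ones. The log2 fold changes were -0.56 ± 0.08 in PPARα-/-, -0.58 ± 0.07 in CREB3L3-/-, -0.47 ± 0.07 in PPARα/CREB3L3-/- and -0.36 ± 0.07 in wild type (adjusted p = 1.3e-05, 1.5e-07, 1.1e-05 and 0.0022), with no overlap between the diets in any genotype.

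Hyou1 and Creld2 were called lower on the ketogenic diet in the genotypes without CREB3L3. Hyou1 had 9.93, 9.41, 9.36 and 9.59 in ketogenic-fed CREB3L3-/- livers, against 10.19, 10.38, 10.35 and 10.29 in fasted ones (-0.73 ± 0.15), and its change in PPARα/CREB3L3-/- livers was -0.79 ± 0.15. Creld2 had 10.08, 9.88, 10.15 and 9.56 in ketogenic-fed CREB3L3-/- livers, against 10.90, 10.99, 10.68 and 10.81 in fasted ones (-0.93 ± 0.22), and its change in PPARα/CREB3L3-/- livers was -1.12 ± 0.22. In PPARα-/- and wild-type livers the values were -0.47 ± 0.18 and -0.26 ± 0.15 for Hyou1 and -0.58 ± 0.26 and -0.41 ± 0.22 for Creld2, not called. The differences of these changes between knockout and wild type were not called for either gene. The call of Creld2 in CREB3L3-/- was lost without ketogenic-fed replicate 2 or 4 or fasted replicate 1 or 2, at -0.92 to -0.81.

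Herpud1 was called lower on the ketogenic diet than after the fast in each knockout. In CREB3L3-/- it had 10.93, 10.56, 10.49 and 11.15 in ketogenic-fed livers, against 12.17, 12.46, 12.27 and 12.44 in fasted livers, a log2 fold change of -1.55 ± 0.15 (adjusted p = 3e-09). The change was -0.65 ± 0.17 in PPARα-/- and -0.64 ± 0.15 in PPARα/CREB3L3-/- livers, beside 0.03 ± 0.15 in wild-type livers, where it was 12.14, 12.15, 12.11 and 11.84 on the ketogenic diet, against 11.96, 11.78, 12.19 and 12.17 after the fast. The difference of the CREB3L3-/- change from that of wild type was -1.58 ± 0.21 (adjusted p = 2.7e-06), called, and was the only call of 9 (background 13.8%). The call in PPARα-/- was lost without ketogenic-fed replicate 2 or 3 or fasted replicate 2 or 3, at -0.71 to -0.46, and that in PPARα/CREB3L3-/- without ketogenic-fed replicate 3 or fasted replicate 1 or 2, at -0.60 to -0.55.

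For Xbp1 the change with diet was called in the combined knockout. It had 10.50, 10.45, 10.74 and 10.21 in ketogenic-fed PPARα/CREB3L3-/- livers, against 10.90, 11.25, 11.08 and 10.67 in fasted ones, a change of -0.50 ± 0.12 (adjusted p = 0.0017) with a slight overlap of the groups, beside 0.15 ± 0.12 in wild type. The difference between these changes, -0.65 ± 0.16 (adjusted p = 0.0068), was the 1 call of 9 for this knockout (background 8.26%), and was lost on leaving out any of 7 arrays, at -0.64 to -0.56. They were fasted PPARα/CREB3L3-/- replicates 2 and 3, ketogenic-fed PPARα/CREB3L3-/- replicates 2 and 4, fasted wild-type replicates 2 and 3 and ketogenic-fed wild-type replicate 4. The change within PPARα/CREB3L3-/- was lost without ketogenic-fed replicate 4 or fasted replicate 2 or 3, at -0.47 to -0.41. For PPARα-/- the difference of the changes was called for 0 of 9 genes by limma or IBMT (background 4.83%), with Xbp1 (-0.60 ± 0.18, adjusted p = 0.038) and Herpud1 (-0.68 ± 0.23, adjusted p = 0.075) at an unadjusted P under 0.05. For PPARα/CREB3L3-/- 5 genes had such a P in limma. Beside Xbp1 they were Dnajb9 (-0.72 ± 0.22, adjusted p = 0.029), Herpud1 (-0.67 ± 0.21, 0.034), Hyou1 (-0.54 ± 0.21, 0.11) and Creld2 (-0.70 ± 0.32, 0.17). For CREB3L3-/- there were 5 as well. Beside Herpud1 they were Dnajb9 (-0.62 ± 0.22, adjusted p = 0.045), Hyou1 (-0.47), Xbp1 (-0.36) and Hsp90b1 (-0.22). Sdf2l1 and Manf showed no called change with diet in any genotype, their log2 fold changes lying between -0.37 and -0.0026. Hspa5 was not called either, but was lower in limma by -0.31 ± 0.09 in wild type (adjusted p = 0.043). Its change was -0.30 ± 0.09 in CREB3L3-/- (0.013), -0.29 ± 0.09 in PPARα/CREB3L3-/- (0.027) and -0.17 ± 0.11 in PPARα-/- (0.35). In wild type and CREB3L3-/- its diets did not overlap. Without fasted replicate 3 the values in PPARα-/- were 0.50 for Sdf2l1, 0.19 for Manf and -0.07 for Hspa5.

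**Figure D4:**
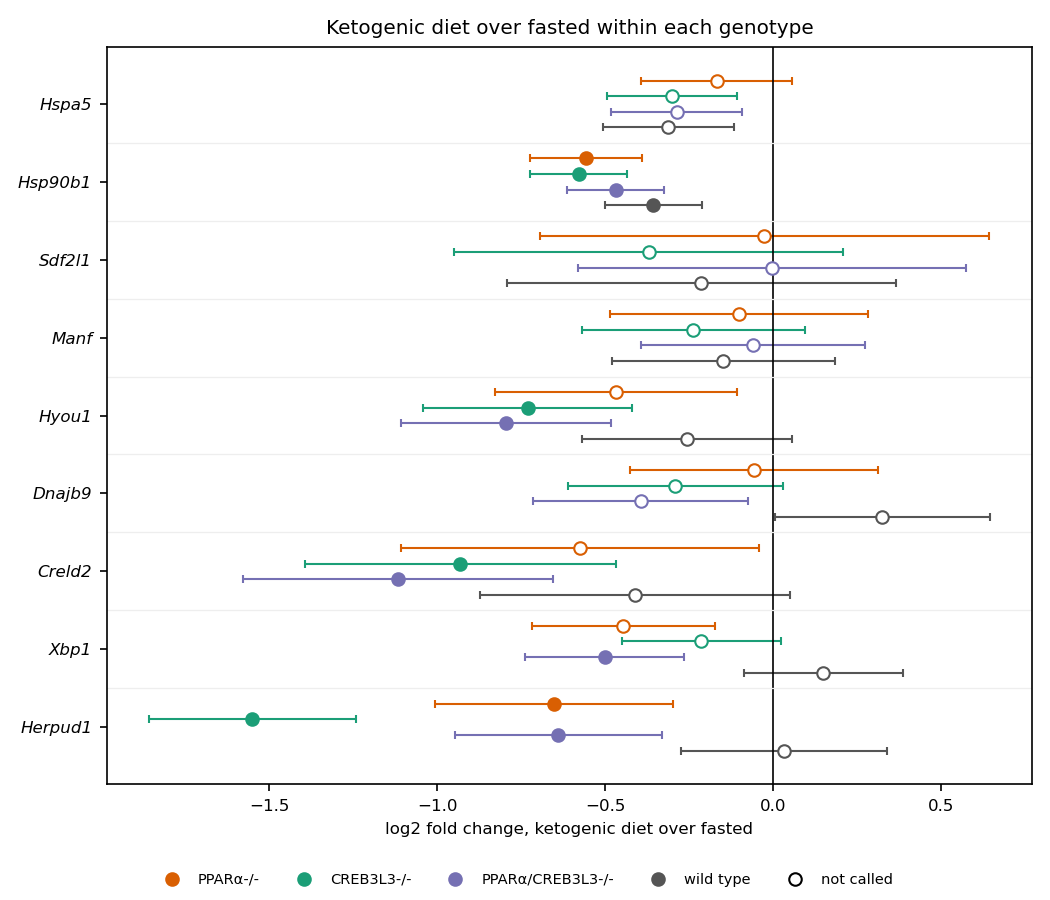
Log2 fold change of each gene on the ketogenic diet over the fast within each genotype, with 95% intervals from the limma fit; filled points were called at P under 0.001 and a fold beyond 1.2. Hsp90b1 was called lower in all 4 genotypes, and Herpud1 lies at -1.55 in CREB3L3-/- and at 0.03 in wild type.

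Ordered by group means, fasted PPARα/CREB3L3-/- livers came first for 7 of the 9 genes, and ketogenic-fed wild-type livers last for 6. Most neighbours in these orders were not called, which does not show them to be equal. Uncalled pairs include fasted over ketogenic-fed wild type for Hspa5 (0.31 ± 0.09, limma adjusted p = 0.043). Another was ketogenic-fed CREB3L3-/- over fasted wild type for Manf (0.49 ± 0.16, limma adjusted p = 0.016). Of 63 pairs of neighbouring groups, 2 were called, fasted CREB3L3-/- over fasted wild type for Hsp90b1 (0.32 ± 0.07) and ketogenic-fed PPARα-/- over ketogenic-fed CREB3L3-/- for Herpud1 (1.01 ± 0.16). For the other 7 genes no neighbouring pair was called, so their order is a description only.

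Across the 30 livers the genes moved together. Over the 36 pairs of genes Pearson's r between levels had a median of 0.65, from 0.21 (Manf with Herpud1) to 0.93 (Hyou1 with Creld2). After the group means were taken away, so that only differences among livers of 1 group were left, the median was 0.62, from -0.23 (Xbp1 with Herpud1) to 0.89 (Hspa5 with Creld2). These are descriptions of genes read on the same arrays and, for the levels, over livers that share groups. They include fasted PPARα-/- replicate 3, the highest of its group for every gene. In the fasted PPARα/CREB3L3-/- group, replicate 2 was likewise the highest for every gene and replicate 4 the lowest. Their mean z-scores over the genes were 1.805 and 0.329. How far the correlations rest on these livers was not tested. Creld2 and Hyou1 had the highest median r with the other genes within groups, 0.78 and 0.77, and Xbp1 the lowest, 0.22.

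Among 18811 other genes, the levels most like the mean z-score of the 9 were those of Atp2a2 (r = 0.906 over 30 arrays), which encodes the calcium pump of the ER, Dnajb11 (0.891), a J-domain partner of BiP, and Syvn1 (0.883), the ubiquitin ligase HRD1 of ER-associated degradation. Calr, Sel1l, Gsk3b, Pdia3 and Pard3b followed at 0.858 to 0.816. Within groups Syvn1 came first (0.887), followed by Gmppa, Uso1, Sel1l, Atp2a2, Surf4, Tmed3 and Tmed9 at 0.852 to 0.798. Syvn1, Sel1l and Atp2a2 were in both sets of 8. Fasted PPARα-/- replicate 3 and fasted PPARα/CREB3L3-/- replicates 2 and 4 are included in both, and the ranking without these livers was not tested.

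The other lists of the secretory pathway were counted in the same way, with the brightest probe set of each gene, beside the share of all such genes called. In fasted PPARα/CREB3L3-/- livers 12 of 26 genes of translocation, signal peptide cleavage and glycosylation were called higher and 0 lower, against 5.81% of all genes called higher, among them Sec61a1, the channel itself (0.82 ± 0.08), and Stt3a, the catalytic part of oligosaccharyltransferase (0.66 ± 0.07). Of 23 other ER folding factors 9 were called higher and 0 lower, led by Hspa13, an Hsp70 of microsomes (0.99 ± 0.12), and Dnajc10, an ER reductase (0.75 ± 0.11). Of 20 genes of ER-associated degradation 5 were higher, among them Vimp (0.63 ± 0.11) and Derl2 (0.53 ± 0.11). In fasted PPARα-/- livers the counts were 10, 9 and 4 (3.11% of all genes), or 3, 2 and 2 without replicate 3, and in fasted CREB3L3-/- livers 4, 2 and 1 (0.648%), with 1 folding factor, the disulfide isomerase P4hb, lower (-0.28 ± 0.06). Of 23 genes of COPII and Golgi trafficking 5 were called higher and 1 lower in PPARα/CREB3L3-/- livers and 7 higher in PPARα-/- livers (4 without replicate 3), whereas in CREB3L3-/- livers the 1 gene called, Sec24d, was lower (-0.48 ± 0.11).

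Of 9 measured sensors and related membrane factors and proteases, 4 were called higher in fasted PPARα/CREB3L3-/- livers and 1, Creb3l3 itself, lower. Of all genes 5.81% were called higher there. In fasted PPARα-/- livers 4 were called higher (3.11% of all genes), or 3 without replicate 3, and 0 lower. In fasted CREB3L3-/- livers 1 was called higher (0.648%) and 1, again Creb3l3 itself, lower (0.893%). The mean level of Creb3l3 was 4.9 there, against 11.1 in fasted wild-type livers. Its call in these genotypes follows from the deletion and is not a result about the list. In PPARα/CREB3L3-/- livers Eif2ak3, which encodes PERK, was higher by 1.60 ± 0.18 and Atf6 by 1.03 ± 0.11, and Creb3l2, a relative of Creb3l3, by 1.23 ± 0.15, all on the log2 scale. Genes of the PERK arm and the integrated stress response were called higher for 7 of 18 in these livers, against 5.81% of all genes, among them Atf4 (1.16 ± 0.18) and Atf3 (4.11 ± 0.57), with 1 lower, Fgf21 (-2.82 ± 0.45), a hormone that PPARα and CREB3L3 are both known to induce. These livers were uneven, with a mean log2 level of this list from 6.05 to 7.45. It was 5.8 to 5.95 in fasted wild-type livers and 6.26 to 6.4 in fasted PPARα-/- livers. How far the calls of this list in PPARα/CREB3L3-/- rest on single livers was not tested. In the fasted single knockouts Fgf21 was the 1 gene of this list called, lower in both. Of 15 cytosolic heat shock proteins 6 were called lower in PPARα/CREB3L3-/-, against 3.95% of all genes, among them Hsp90aa1 (-0.74 ± 0.11) and Hsph1 (-1.01 ± 0.18), and of 10 mitochondrial chaperones 3 were called lower, Hspe1 (-0.38 ± 0.06), Hspd1 (-0.32 ± 0.06) and Clpx (-0.72 ± 0.14).

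**Figure D5:**
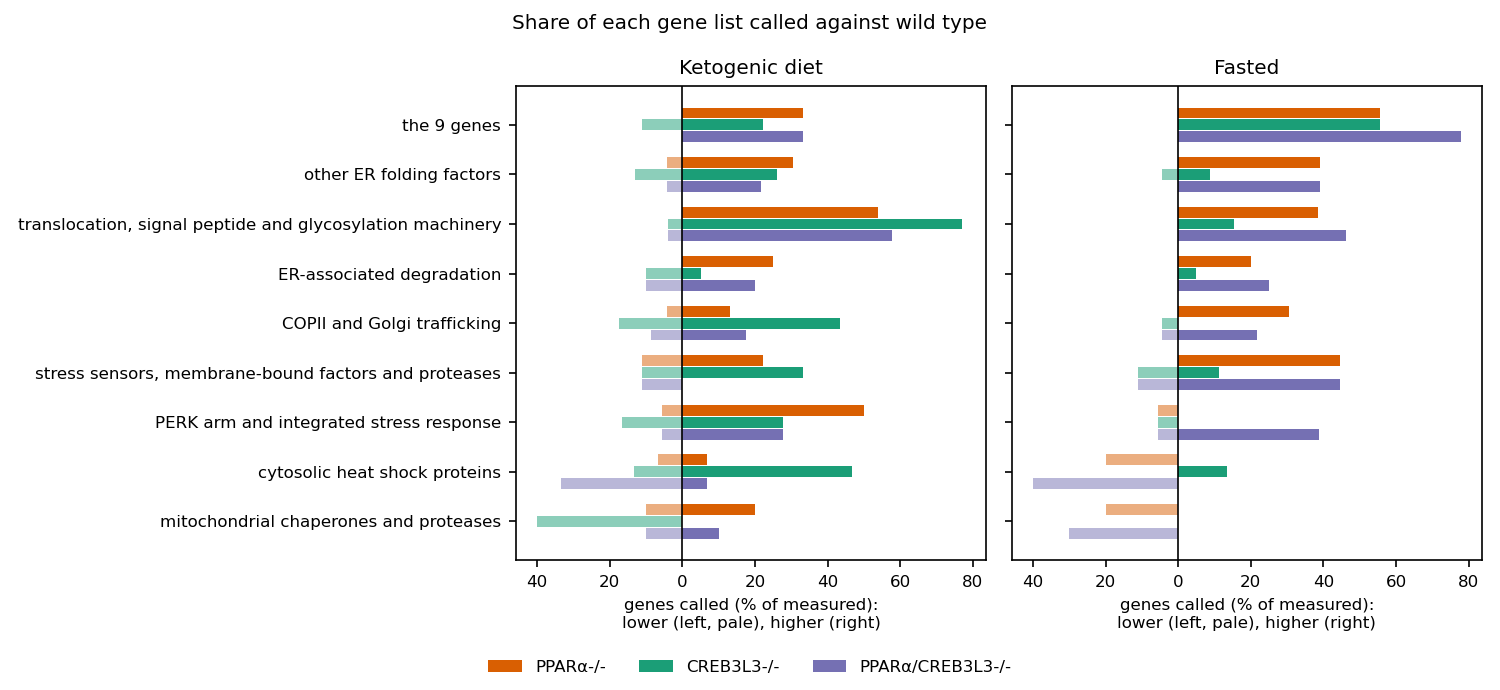
Share of the measured genes of each list called higher (right, full colour) or lower (left, pale) in each knockout against wild type, on the ketogenic diet (left panel) and after the fast (right panel). In the fasted state the 9 genes have 5, 5 and 7 called higher, and on the ketogenic diet the translocation and glycosylation list has 20 of 26 called higher in CREB3L3-/-.

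On the ketogenic diet the translocation and glycosylation list was called higher for 14 of 26 genes in PPARα-/- (6.45% of all genes called higher), 20 in CREB3L3-/- (16.7%) and 15 in PPARα/CREB3L3-/- livers (7.44%). In CREB3L3-/- livers Sec61g rose by 0.94 ± 0.09 and Srprb, which anchors the receptor of the signal recognition particle, by 0.99 ± 0.10. Among the other folding factors Dnajc10 rose by 1.70 ± 0.11 and Ero1l, an oxidase that feeds disulfide formation, by 0.92 ± 0.10. Of that list 6 of 23 were called higher and 3 lower, among them Ero1lb (-1.13 ± 0.18), the 3 being close to the 11.9% of all genes called lower. Of the genes of ER-associated degradation, to which Herpud1 belongs by function, 1 of 20 was higher, Ube2j1 (0.64 ± 0.07), and 2 were lower, Os9 (-0.81 ± 0.12) and Dnajb2 (-0.46 ± 0.09), both counts lying below the shares of all genes. Of the PERK arm list, 5 of 18 genes were higher in CREB3L3-/- livers and 3 lower, and 9 of 18 were higher in PPARα-/- livers with 1 lower.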

How the data were processed

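RNA from 1 liver per array was hybridized to Affymetrix Mouse Gene 1.1 ST arrays. The authors summarized and normalized the probe signals with RMA in AffyPLM (version not given in the sources used here), and the file they deposited holds log2 expression values of 35556 probe sets on 30 arrays, between 0.698 and 13.7. Its identifiers are the manufacturer's transcript clusters, and genes were named through the platform annotation, in which 21218 probe sets carry 1 gene symbol, 1881 several and 12457 none. RMA pulls low values together and makes the arrays' distributions alike, so changes of dim genes are understated and a shift common to all genes is removed. Samples were grouped by the deposited labels.

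All values were fitted in limma 3.58.1 (R 4.3.3) with 8 group means and an intensity trend (22 residual and 3.47 prior degrees of freedom), and 19 contrasts were tested. A probe set was called at P under 0.001 and a fold beyond 1.2. Background percentages count all probe sets. For lists, the brightest probe set with a single symbol stood for each gene. The fit was tested on simulated data with known changes. Alternatives were IBMT, a replicate block, no trend, other scalings, filters, arrays of 1 regimen, an adjusted p threshold and leaving out each array. Arrays of 1 group correlated at 0.978 to 0.99, and their number limits the precision. The p-values set each difference against the spread among livers within all 8 groups, moderated by the intensity trend. They do not reflect the spread of the compared groups alone.

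Motifs were searched on both strands with Python 3.11.15 (pandas 2.3.3), and figures were drawn with matplotlib 3.10.9. Named list genes were up to 4 per list and comparison with the lowest P among those called, and the genes most like the 9 were the 8 with the highest correlation. The genes and lists were chosen with earlier results of these data known.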

Additional observations from a re-analysis of the deposited data

Results flagged for a closer look

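Herpud1 differed between groups in its response to CREB3L3 loss. On the ketogenic diet the interaction of both knockouts was 1.34 ± 0.22 on the log2 scale (limma, adjusted p = 3.4e-05), and the effect of CREB3L3 loss differed between the regimens by -1.58 ± 0.21, ketogenic minus fasted (adjusted p = 2.7e-06). For Xbp1 the effect of losing both factors differed between the regimens by -0.65 ± 0.16 (adjusted p = 0.0068). In ketogenic-fed wild-type livers Herpud1 had 1 array at 11.84, away from the others at 12.11 to 12.15. It was the 1 such group among 54 groups of 4 tested, where chance gives about 1 in 20.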

How the results depend on the processing

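Of 753 values of called genes under an alternative, 687 kept direction and call, 66 lost the call and 0 changed sign. The calls of Herpud1 in ketogenic-fed CREB3L3-/- livers were kept under all alternatives tried. In fasted PPARα-/- livers the count of called genes was 5, or 3 with arrays of 1 regimen only. With an adjusted p under 0.05 as the threshold, the count was 5 for ketogenic-fed PPARα-/- over wild type, 3 for the ketogenic interaction, 2 for the diet in wild type, and 1 (PPARα-/-), 2 (CREB3L3-/-) and 3 (PPARα/CREB3L3-/-) for the change of a knockout effect with the regimen. With repeated quantile normalization the ketogenic interaction had 2. The diet in PPARα-/- had 1 called gene instead of 2 under a replicate block, without the intensity trend, with median centring and with repeated quantile normalization. The replicate block, the fit without the trend and median centring also took the call from Hspa5 in fasted PPARα-/- livers, at 0.37, 0.40 and 0.38. Repeated quantile normalization took the call from Hspa5 in the fasted knockouts, at 0.30, 0.34 and 0.35 for PPARα-/-, CREB3L3-/- and PPARα/CREB3L3-/-. The causes were not tested.

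Leaving out 1 array gave these ranges of called counts for the fast: 0 to 8 in PPARα-/-, 1 to 6 in CREB3L3-/-, 6 to 8 in PPARα/CREB3L3-/- and 0 to 3 for the interaction. On the ketogenic diet they were 2 to 3, 1 to 3, 2 to 4 and 1 to 2 in the same order. For the diet they were 1 to 3 in PPARα-/-, 3 to 4 in CREB3L3-/-, 3 to 6 in PPARα/CREB3L3-/- and 1 to 1 in wild type, and for the change of the PPARα/CREB3L3-/- effect 0 to 1.

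Equal replicate numbers did not pair the livers: over 42 pairs of arrays with the same number, deviations from group means correlated at -0.111 to 0.121, with 3 above 0.1. With the replicate block the counts for the fasted knockouts were 4, 5 and 8. The median of all probe sets in ketogenic-fed CREB3L3-/- over wild type was -0.065, and -0.118 after median centring. The number of livers, 3 or 4 a group, limits the precision.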
